A study of Bos taurus with 6 samples.

Results

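The immediate early genes described here are 10 named genes, FOS, FOSB, JUN, JUNB, EGR1, ATF3, IER2, IER3, MYC and BTG2, out of 22839 gene symbols in the deposited counts. They were listed by name, as genes that respond within minutes to handling, slaughter or tissue sampling, with earlier results of these data known. All 10 were found under their own symbols, and all 10 were among the 15039 rows that passed the filter on low counts. The samples were longissimus thoracis muscle (LT) of 6 Hanwoo (Korean native cattle) steers, 1 library per steer, raised conventionally on commercial feed. The high-NFMP group held 3 steers with a high number of fine marbling particles (labelled 3-8, 10-8 and 10-9, aged 32.5, 33.8 and 34.5 months), and the low-NFMP group 3 steers with a low number (3-1, 3-3 and 10-16, aged 37.8, 33.7 and 35.4 months). The groups were formed by image analysis of marbling, no steer was treated, and the sources used here do not give the time between slaughter and sampling. Whole LT muscle was extracted, so fewer cells of a type and less RNA per cell cannot be told apart.

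Immediate early genes are transcribed without new protein synthesis, since the factors that switch them on are already in the cell and only have to be phosphorylated. FOS, FOSB, JUN, JUNB and ATF3 encode basic leucine zipper proteins that bind DNA in pairs, and pairs of a FOS with a JUN protein form the AP-1 transcription factor. EGR1 is a zinc finger transcription factor, MYC a basic helix-loop-helix factor that drives growth and pairs with MAX, IER2 a small nuclear protein, IER3 a stress and survival protein, and BTG2 an antiproliferative protein that recruits the deadenylase that shortens mRNA tails. In skeletal muscle these genes are known to respond to contraction, stretch and injury. Their mRNAs are short-lived, and levels in a sampled tissue can move within minutes.

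The libraries held between 16283873 and 17192750 counted reads, and the 10 genes took between 0.0832% and 0.109% of them. Muscle fibre markers dominated in each library (TTN at 976004 and ACTA1 at 342406 normalized counts over 6 steers), and none of the 9 fibre markers had an unadjusted p below 0.05. Normalized counts are counts scaled by trimmed mean of M-values (TMM) factors, between 0.916 and 1.08, to a common library size of 16799032 reads. The 3′ method is designed to prime at the poly(A) tail, so counts of different genes are set side by side without a length correction. Whether they are free of transcript length was not tested, and an order of genes below is an order of counts.

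JUN was by far the most counted of the genes. In steers 3-8, 10-8 and 10-9 of the high-NFMP group it had 9417, 11149 and 9247 normalized counts, against 13692, 9882 and 12027 in the low-NFMP steers 3-1, 3-3 and 10-16. The groups overlapped, and the highest steer stood only 1.48-fold above the lowest. JUN alone made up between 62.2% and 76.6% of the normalized counts of the 10 genes in a steer.

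JUNB, the partner of FOS proteins that is a weaker activator than JUN, had 1529, 1221 and 1136 normalized counts in the high-NFMP steers and 1425, 1051 and 1565 in the low-NFMP steers. Its groups overlapped over nearly the whole range, with 1.49-fold between the extremes. By this ratio of extremes over the 6 steers, JUN and JUNB had the least spread of the 10 genes.

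FOS, the classical immediate early gene, was at 842, 1181 and 1686 normalized counts in the high-NFMP steers and at 942, 854 and 1169 in the low-NFMP steers. Steer 10-9 was highest and steer 3-8, of the same group, lowest. FOSB, its close relative, was much rarer, at 89.2, 76.7 and 227 in the high-NFMP steers and 141.6, 49.97 and 243 in the low-NFMP steers. Each group held a steer with high and a steer with low FOSB, so the groups overlapped. FOSB had a 4.79-fold range over the 6 steers against 2.0-fold for FOS, and the ratio of FOS to FOSB counts ran from 4.80 in steer 10-16 to 17.1 in steer 3-3.

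ATF3, a stress-induced member of the same zipper class, had 490.5, 503 and 935 normalized counts in the high-NFMP steers and 771, 442 and 535 in the low-NFMP steers. In each group 1 steer (10-9 and 3-1) stood apart above the other two. EGR1 was counted only 33, 18 and 33 times in the high-NFMP libraries and 29, 18 and 45 times in the low-NFMP libraries. With an exact 95% Poisson interval of 10.7 to 28.4 for the lowest and 32.8 to 60.2 for the highest count, only these extremes are separated by counting error, and these intervals cover counting error alone because PCR copies of 1 molecule may be counted as separate reads. The other EGR1 counts have intervals that overlap those of both extremes.

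MYC was the least counted member and the most variable. Its raw counts were 20, 8 and 3 in steers 3-8, 10-8 and 10-9, and 8, 49 and 14 in steers 3-1, 3-3 and 10-16. The 49 reads of steer 3-3 have an exact 95% Poisson interval of 36.3 to 64.8, which lies above the interval of 12.2 to 30.9 for the next highest steer. The range over the 6 steers was 11.6-fold on the scale of normalized count + 1.

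IER2 had 676, 518 and 781 normalized counts in the high-NFMP steers and 508, 483 and 584 in the low-NFMP steers, with overlap at steer 10-8. IER3 had 234, 193 and 271 against 108, 160.1 and 119, and all high-NFMP values were above all low-NFMP values. BTG2 had 392, 509 and 546 against 260.3, 279 and 319, again without overlap. IER3 and BTG2 were the only members of the 10 whose groups did not overlap. Over all tested genes, 7.97% were separated with the high-NFMP group above, 9.16% with the low-NFMP group above, and thus 17.1% in either direction.

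**Figure D1:**
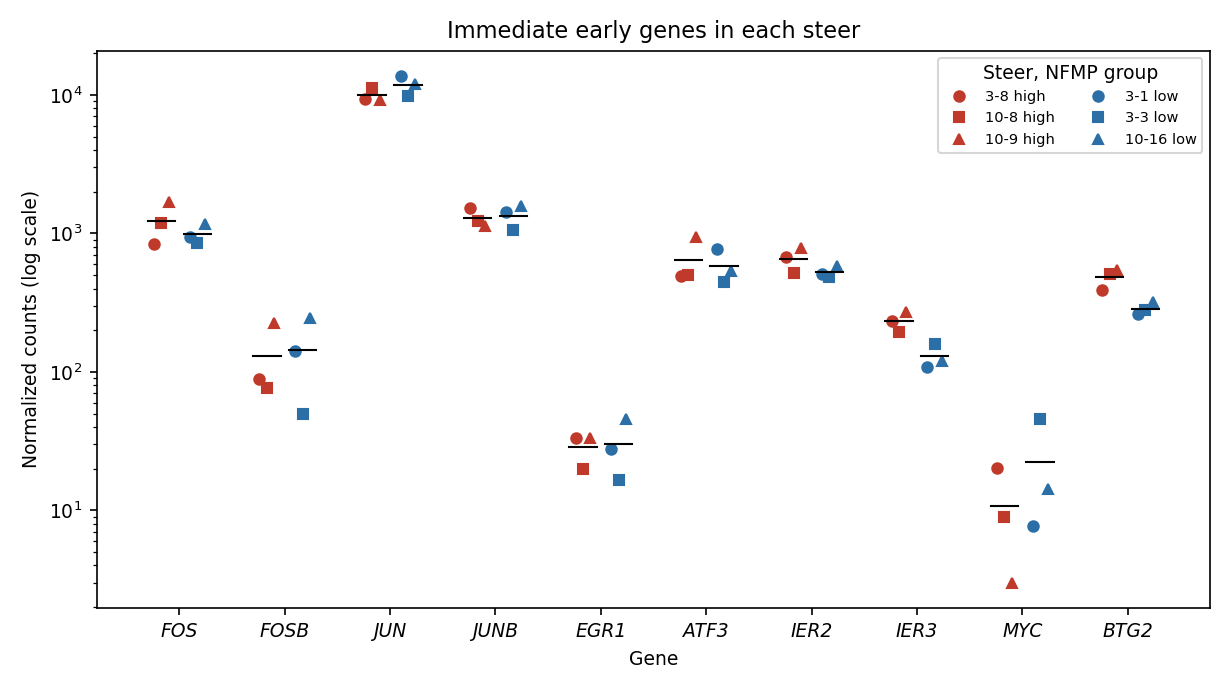
Normalized counts of the 10 immediate early genes on a log scale, one point per steer, in red for the 3 high-NFMP and in blue for the 3 low-NFMP steers, with a black line at each group mean. The groups overlap except for IER3 and BTG2, and JUN lies far above the rest.

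By mean normalized count the order was JUN, JUNB, FOS, ATF3, IER2, BTG2, IER3, FOSB, EGR1 and MYC. The ranges over the 6 steers of neighbours in this order overlapped, except between JUN and JUNB and between FOSB and EGR1. Within the JUN family, JUN exceeded JUNB by 7.81 ± 1.51-fold in high-NFMP and by 8.90 ± 1.06-fold in low-NFMP steers (SD, n = 3 each). JUN exceeded FOS by 8.70 ± 2.92-fold (SD, n = 3) and 12.1 ± 2.18-fold (SD, n = 3), with overlapping steers.

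The members differed in which steer was highest and which was lowest. Steer 3-3 lay below the gene mean in 9 of the 10 genes, all but MYC, and steers 10-9 and 10-16 lay above it in 7 genes each. Steer 10-9 had the highest value in 5 of the 10 genes (FOS, ATF3, IER2, IER3 and BTG2) and the lowest in JUN and MYC. Steer 10-16 was highest in FOSB, JUNB and EGR1, steer 3-1 in JUN and steer 3-3 in MYC. Steer 3-3 was lowest in 5 genes, FOSB, JUNB, EGR1, ATF3 and IER2. Steers 3-8 and 10-8 were highest in none. The median deviation from the gene mean, over the 10 genes and on the log2 scale, was 0.49 in steer 10-9 and -0.33 in steer 3-3, and between -0.13 and 0.15 in the other steers.

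The TMM factor of steer 3-3 was the largest and that of steer 10-8 the smallest of the 6. With library totals alone, steer 3-3 was lowest in 2 genes and steer 10-8 in 3, and steer 10-9 still had the highest value in 5. With RLE size factors, as with TMM, steer 3-3 was lowest in 5 genes and steer 10-9 highest in 5. The summed adipocyte markers were lowest of the 6 steers in steer 10-9, at 4960 normalized counts, and highest in steer 3-8, at 13401. The most counted of them, FABP4 and SCD, were lowest in steer 10-9, at 1019 and 1075. ADIPOQ, CIDEC and LIPE in that steer lay above all low-NFMP steers, LEP lay below them, and PLIN1 and FASN lay among them. The part of adipocytes in the levels of the 10 genes was not tested.

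**Figure D2:**
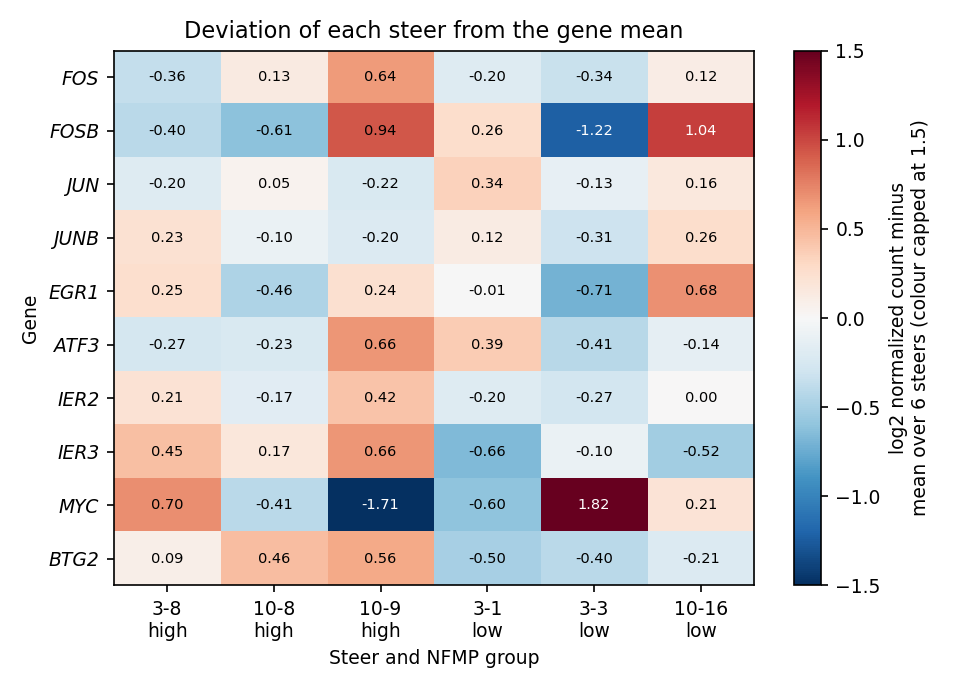
Deviation of each steer (columns) from the mean of each gene (rows) in log2 normalized count + 1, with the value printed in each cell and the colour capped at 1.5. Red marks the steers above the gene mean, among them steer 10-9 in FOS, FOSB, ATF3, IER2, IER3 and BTG2, while MYC runs from -1.71 in steer 10-9 to 1.82 in steer 3-3.

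Relative to the other genes of these libraries, the spread of the immediate early genes was ordinary as a group and uneven between members. Their median ratio of highest to lowest steer was 2.1, against 1.93 over the 15039 tested genes, and the median SD between steers of a group was 0.33 in log2 units in both sets. FOSB and MYC stood near the top, with SDs within groups of 1.01 and 1.22, above those of 96.7% and 98.4% of the tested genes. For FOSB the counting error at its level would give an SD of 0.12, and for MYC 0.35. EGR1, at 0.57, lay above 81.4% of the genes and against a counting error of 0.27.

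JUN, BTG2, IER2, JUNB and IER3 had SDs within groups between 0.20 and 0.27, below the median of all genes. FOS and ATF3 were at 0.39 and 0.47. The biological coefficient of variation that edgeR assigned to each gene was above the trend for its abundance in 4 of the 10 members (FOS, FOSB, ATF3 and MYC), a share of 40%, against 34.3% of all tested genes. It was 50.3% for FOSB, where the trend at that abundance was 24.4%, and 56.2% for MYC, where the trend was 40.0%.

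**Figure D3:**
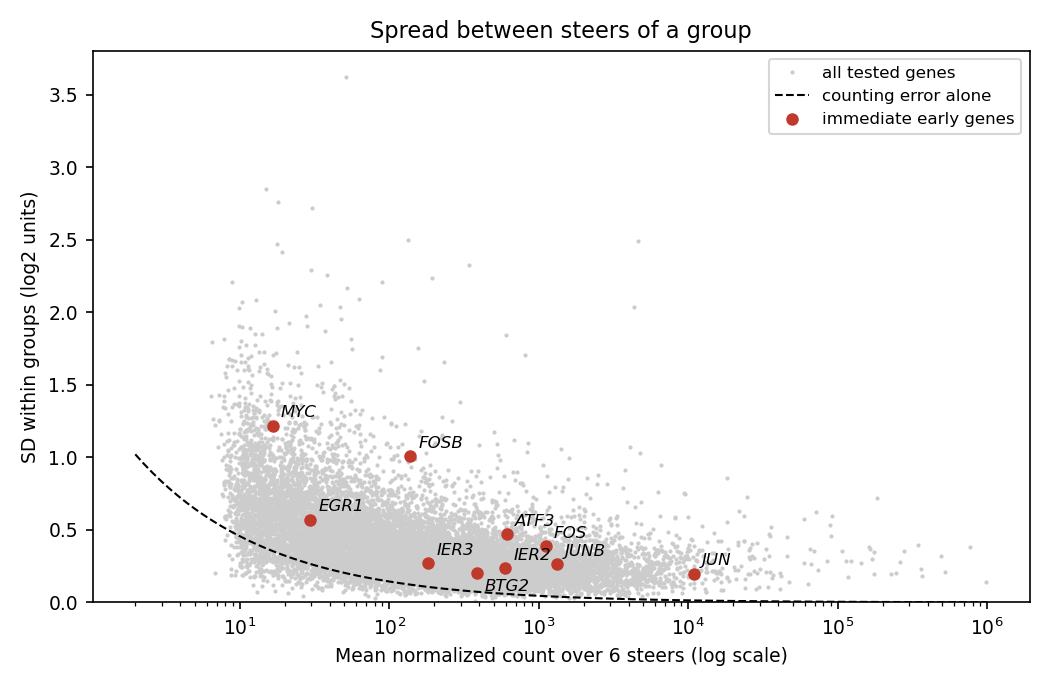
SD between steers of a group, in log2 units and pooled over both groups, against the mean normalized count on a log scale, for all tested genes (grey) and the 10 immediate early genes (red). The dashed line is the SD that counting error alone would give, and FOSB, at 1.01, stands far above it.

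The first number of the steer labels, 3 or 10, has no meaning given in the sources used here, and both numbers occur in both groups. FOS was the only member in which all steers of one number lay above all of the other, with 1169 to 1686 normalized counts in steers 10-8, 10-9 and 10-16 and 842 to 942 in steers 3-8, 3-1 and 3-3. In 7.04% of all tested genes the steers of number 10 lay in this way above those of number 3, and in 7.11% below. The split was not particular to FOS. Of the 9 muscle fibre markers 5 had number 10 above and 0 below, and of the 34 other immediate early genes tested 4 had it above and 2 below. With both group and number in edgeR's quasi-likelihood fit, FOS was 0.57 higher on the log2 scale in number 10 (unadjusted p = 0.0156, adjusted p = 0.73), and 6.64% of all tested genes had an unadjusted p below 0.05 for the number. The log2 difference of high over low NFMP for FOS was 0.10 in this fit, against 0.32 in the fit without the number. Its ratio of high to low group means was 0.94 within number 3 and 1.23 within number 10. In the fit with the number FOSB was 1.07 higher in number 10 and MYC -1.31, with unadjusted p of 0.0641 and 0.0948 by edgeR.

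The comparison of high with low NFMP asked whether these genes differed between the groups formed by the number of fine marbling particles. The paper reports a higher marbling score and a larger rib eye area in the sequenced high-NFMP steers too. These traits cannot be told apart from particle number here. The study called a gene at an unadjusted p below 0.05 and more than a 2-fold difference, and none of the 10 members passed it in edgeR's quasi-likelihood test, whereas 3.9% of the 15039 tested genes did, 2.53% as higher and 1.36% as lower. At an unadjusted p below 0.05 alone there were 2 members, BTG2 and IER3, against 11.5% of all tested genes. No member had an adjusted p below 0.05, which 0.685% of all tested genes had. DESeq2 also gave none past the threshold and none at an adjusted p below 0.05. The median log2 fold change of the 10 members was 0.05, with 5 positive and 5 negative, and that of all tested genes was 0.02. The members' median moved with the fit, to 0.45 with age as a term (0.01 over all genes), and with single steers, from -0.06 without steer 10-9 to 0.43 without steer 10-16. With 3 steers a group, exact permutation has 0.1 as its smallest p, so these p-values rest on the spread that edgeR shares between genes.

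BTG2 averaged 482 ± 80.1 in high-NFMP and 286 ± 29.96 in low-NFMP steers (normalized counts, SD, n = 3 each). This is a log2 difference of 0.75 with a standard error of 0.20 (edgeR, unadjusted p = 0.00215, adjusted p = 0.134), a fold of 1.68 with a 95% interval of 1.25 to 2.27. IER3 averaged 233 ± 38.7 and 129 ± 27.4 in the same way, a log2 difference of 0.85 with a standard error of 0.24 (edgeR, unadjusted p = 0.0035, adjusted p = 0.168) and a fold of 1.80 with an interval of 1.25 to 2.59. Both were thus higher in the high-NFMP steers by less than the fold limit of 2, and neither passed after adjustment.

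The unadjusted p of both genes stayed below 0.05 in all 14 alternative fits, including each of the 6 with a steer left out. IER3 reached the threshold of the study, at log2 fold changes of 1.00 and 1.03, without steer 10-8 or without steer 3-3. As the groups did not overlap in either gene, the high-NFMP steers had to lie above the low-NFMP steers within each label number too. The ratio of group means was 1.45 in number 3 and 1.65 in number 10 for BTG2, and 1.75 and 1.95 for IER3. Each number held only 3 steers, so no test was made within it.

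Adipocyte markers differed between the groups in part. All 8 had a positive log2 fold change, with a median of 0.62, and 4 had an unadjusted p below 0.05 by edgeR as higher, against 5.73% of all tested genes. Of these FASN passed the threshold at a log2 fold change of 1.11, against 2.53% of all tested genes called higher. ADIPOQ, at 1195 ± 359 (SD, n = 3) against 771 ± 154 (SD, n = 3) normalized counts, CIDEC and LIPE did not overlap between the groups, against 7.97% of all tested genes in this direction. The summed markers were at 13401, 7346 and 4960 normalized counts in steers 3-8, 10-8 and 10-9 and between 5263 and 6141 in the low-NFMP steers. Steer 10-9 thus lay below all low-NFMP steers in the sum, although not in ADIPOQ, CIDEC and LIPE. Of the 7 endothelial markers 1 had an unadjusted p below 0.05 (CLDN5, higher, log2 fold change 0.93; 11.5% of all tested genes had such a p), and their sums ran from 1105 to 1660 against 1064 to 1359. Leukocyte markers summed to 412 to 646 against 386 to 668. Of the 6 tested, 3 were positive and 3 negative, and ITGAM was past the threshold at -1.08 (1.36% of all tested genes were called lower). CSF1R (0.73) and CD14 (0.57) did not overlap in the other direction, as did 7.97% of all tested genes. Their unadjusted p were 0.0541 and 0.0712 by edgeR. Fibroblast markers summed to 12086 to 15265 against 9458 to 12467. Of these 6, 4 were positive, the median was 0.20, and PDGFRA alone had an unadjusted p below 0.05, at -0.51 (5.74% of all tested genes had such a p as lower). Of the red blood cell genes, HBB reached 18 reads at most, HBA 10 and HBA1 17, while ALAS2, the erythroid enzyme of heme synthesis, had 16 to 41 reads and a log2 fold change of -0.26. The part of these cell types in the levels of BTG2 and IER3 was not tested.

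The other 8 members had intervals that included no change, and their widths differed. The intervals were narrowest for JUN (log2 fold change -0.26, 95% interval -0.68 to 0.16), JUNB (-0.06, interval -0.48 to 0.37) and IER2 (0.33, interval -0.10 to 0.75), so that a change of the fold limit of 2 lies outside them. The same holds for FOS (0.32, interval -0.18 to 0.83) and ATF3 (0.14, interval -0.46 to 0.74). For FOSB (-0.14), EGR1 (-0.05) and MYC (-1.06) a fold of 2 lies within the interval in at least one direction, and their intervals ran from -1.55 to 1.26, from -1.02 to 0.93 and from -2.64 to 0.53.

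Single steers decided several of these values. The log2 fold change of MYC was -0.02 without steer 3-3, -1.91 without steer 3-8 (edgeR, unadjusted p = 0.0531) and -1.47 without steer 3-1 (edgeR, unadjusted p = 0.0533). That of FOS was 0.03 without steer 10-9 and 0.54 (unadjusted p = 0.0279 by edgeR) without steer 3-8. FOSB went from -0.80 without steer 10-9 to 0.50 without steer 10-16, and ATF3 from -0.23 without steer 10-9 to 0.40 without steer 3-1. IER2 was at 0.51 (unadjusted p = 0.0275 by edgeR) without steer 10-8 and at 0.19 without steer 10-9, and JUN at -0.14 without steer 3-1. JUNB and EGR1, near 0 in the reported fit, took both signs. With age as a term ATF3 was at 0.64 (unadjusted p = 0.0343 by edgeR) and JUN at -0.05, and MYC passed the threshold, at -2.34 (unadjusted p = 0.00338, adjusted p = 0.289 by edgeR), on counts of 49 or fewer reads.

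**Figure D4:**
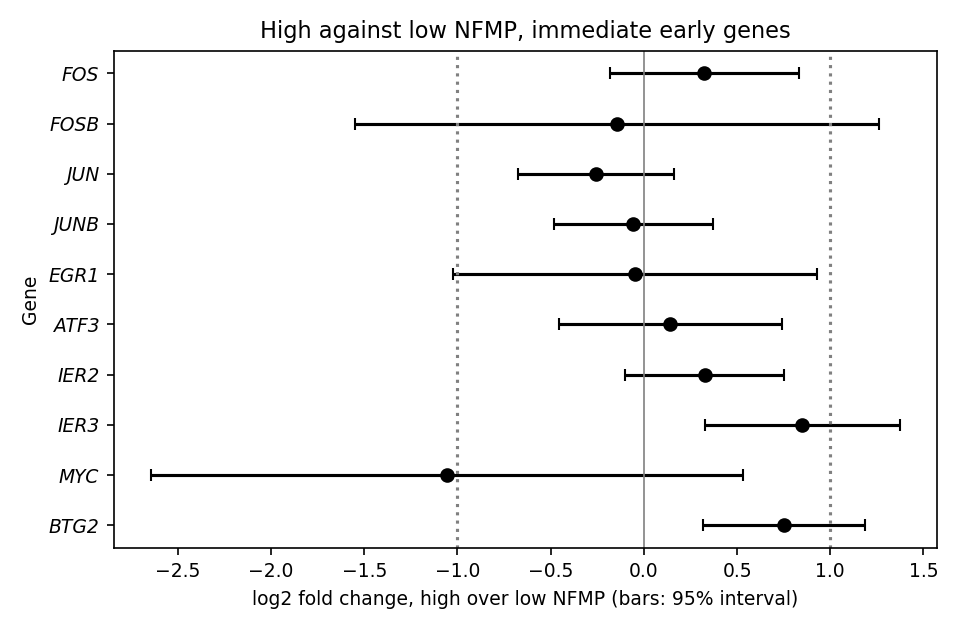
Log2 fold change of high over low NFMP for the 10 immediate early genes with 95% intervals from edgeR's quasi-likelihood fit, and dotted lines at the fold limit of 2. The intervals of IER3 and BTG2 lie above 0, from 0.33 and 0.32 upwards, and the other 8 include 0.

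The wider set of immediate early genes, listed by name beside the 10, held 38 genes, of which 34 were tested. EGR2 and DUSP2 were matched to no symbol, and EGR4 and ZFP36 were removed by the filter. Of the 34, 2 were past the threshold as higher in the high-NFMP group (CSRNP1 and NR4A2) and 1 as lower (SOCS3), which is 8.82% against 3.9% of all tested genes. This count of 3 was 7 with age as a term and 6 without steer 10-8 or without steer 10-16. Their median log2 fold change was 0.09, with 19 positive and 15 negative. At an unadjusted p below 0.05 by edgeR, 7 were higher (5.73% of all tested genes were) and 4 were lower (5.74% of all).

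CSRNP1, a nuclear protein first described as induced by AXIN1, had 406, 385 and 531 normalized counts in the high-NFMP steers and 155, 91.6 and 238 in the low-NFMP steers. The groups did not overlap. The log2 difference was 1.45 with a standard error of 0.30 (edgeR, adjusted p = 0.0455). NR4A2, an orphan nuclear receptor, had 441, 426 and 368 against 182, 157 and 256, also without overlap, and a log2 difference of 1.05 with a standard error of 0.22 (edgeR, adjusted p = 0.0495). SOCS3, the feedback inhibitor of cytokine signalling, had 92.2, 43.3 and 52.2 against 197, 173 and 70.7, where steer 10-16 lay below steer 3-8. All its steers of label number 3 lay above all of number 10, as in 7.11% of all tested genes. The log2 difference was -1.23 with a standard error of 0.39 (edgeR, adjusted p = 0.238), and it fell short of the fold limit with the label number as a term (-0.79) and without steer 3-1 (-0.96).

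JUND, the JUN gene that is expressed without a stimulus, was named after its values were seen. It had 1929, 1806 and 2317 normalized counts in the high-NFMP steers and 1134, 1005 and 1090 in the low-NFMP steers, with no overlap. The log2 difference was 0.91 with a standard error of 0.18 (edgeR, adjusted p = 0.0324), below the fold limit, which it passed at 1.02 with age as a term or without steer 10-8. JUND made up 15.3 ± 2.77% of the summed JUN, JUNB and JUND counts in high-NFMP and 7.61 ± 0.74% in low-NFMP steers (SD, n = 3 each). The other two JUN genes had negative log2 fold changes with intervals that included 0, and the difference between JUND and them was not tested.

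The adjusted p of CSRNP1, NR4A2 and JUND depended on the fit and on single steers. With the first label number as a term it was 0.0517, 0.0838 and 0.0563 by edgeR, and with age as a term 0.146, 0.33 and 0.153. With each steer left out in turn it was below 0.05 in 1 of 6 fits for CSRNP1 (range 0.0198 to 0.156), in 1 of 6 for NR4A2 (0.0387 to 0.257) and in none for JUND (0.0516 to 0.181), and the unadjusted p of all 3 genes stayed below 0.05 in these fits. NR4A2 also fell short of the fold limit without steer 3-8, 3-1 or 3-3 and with library totals alone. After quantile normalization with limma the adjusted p were 0.242, 0.222 and 0.201. Of the 8 alternative fits that kept all steers, 5, 4 and 4 gave CSRNP1, NR4A2 and JUND an adjusted p below 0.05. With DESeq2 it was 0.0006, 0.0033 and 0.0007.

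Other genes of the wider set differed in direction. Of the 5 most counted, NR4A1 was at 4311 ± 1853 (SD, n = 3) against 4434 ± 1572 (SD, n = 3) normalized counts, although its relative NR4A2 was higher in the high-NFMP group. KLF6, a zinc finger factor, was at 3330 ± 141 against 2505 ± 298 (log2 fold change 0.41, unadjusted p = 0.0347 by edgeR). MAFF, a small MAF protein, was at 2586 ± 463 against 1889 ± 431 (0.45, unadjusted p = 0.0454 by edgeR). NFKBIA, the inhibitor of NF-kappa-B, was at 2527 ± 734 against 2304 ± 159. BTG1, the close relative of BTG2, went the other way from it, at 1343 ± 82.5 against 2035 ± 726 (log2 difference -0.60, edgeR, unadjusted p = 0.0179), and all its high-NFMP steers lay below all low-NFMP steers. The lower genes also held DUSP1, the phosphatase that switches off MAP kinases, at 1178 ± 239 against 1644 ± 133 (log2 difference -0.48, unadjusted p = 0.0233 by edgeR). CCN1, counted under its older symbol CYR61, was lower too (-0.87, unadjusted p = 0.0308 by edgeR). KLF2 (0.64, unadjusted p = 0.0379) and GADD45B (0.57, unadjusted p = 0.0479 by edgeR) were higher.

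**Figure D5:**
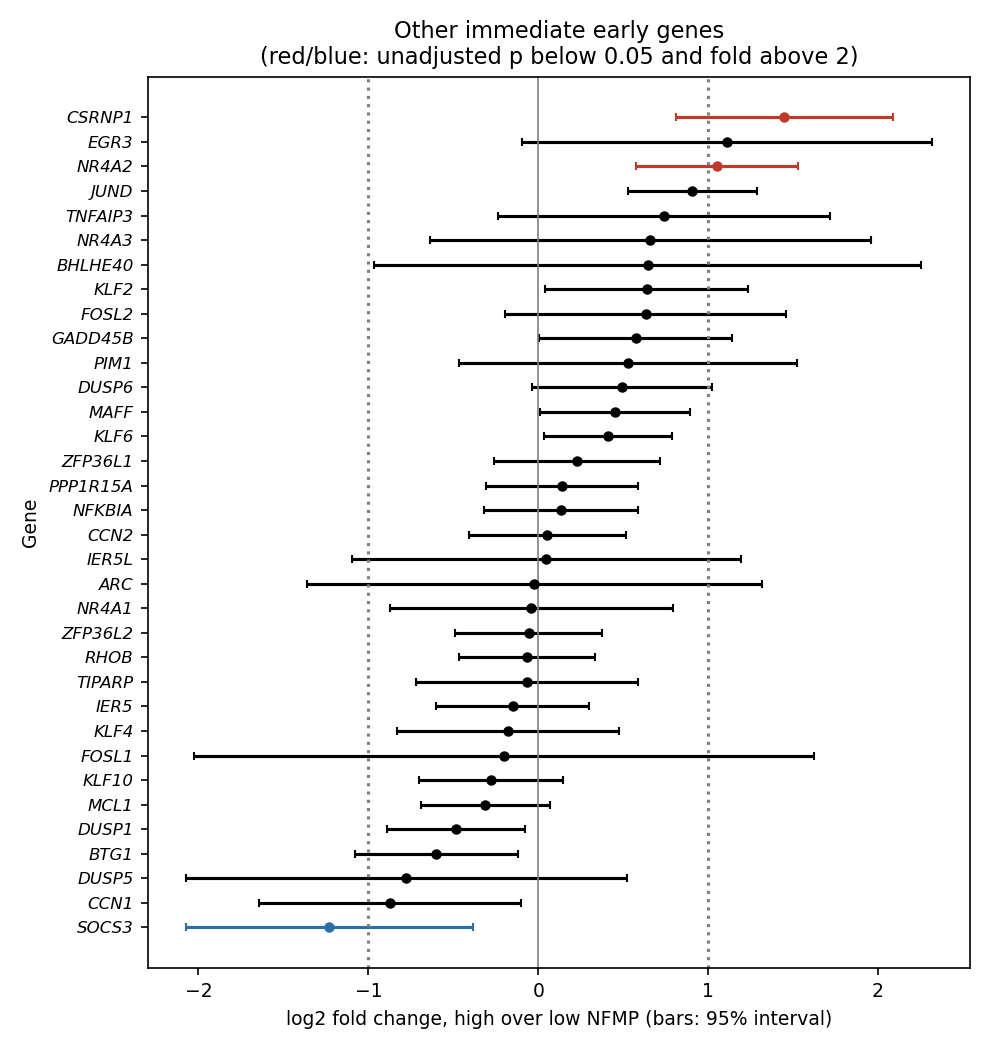
Log2 fold change of high over low NFMP with 95% intervals for the 34 other immediate early genes tested, ordered by value, with dotted lines at the fold limit of 2. CSRNP1 (1.45) and NR4A2 (1.05) in red and SOCS3 (-1.23) in blue are past the study's threshold, and the rest lie on both sides of 0.

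The kinases and transcription factors that switch immediate early genes on were also listed. Of 20 tested, none was past the threshold, against 3.9% of all tested genes, and the median log2 fold change was -0.16. An unadjusted p below 0.05 by edgeR was found for 2, against 11.5% of all tested genes. In so short a list neither share stood far from the background. Both were lower in the high-NFMP group, MAPK8, which encodes the JUN kinase JNK1, at 588 ± 99.3 against 898 ± 99.1 (SD, n = 3; log2 difference -0.61, edgeR, unadjusted p = 0.00632), and ATF2, a zipper factor, at -0.58. SRF, the serum response factor that binds FOS and EGR1 promoters, was at 114 ± 94.2 against 258 ± 73.4 (log2 fold change -1.18, unadjusted p = 0.0693 by edgeR), with a 9.25-fold range over the steers. The most counted were MAPKAPK2 (log2 fold change 0.33) and RPS6KA3 (-0.48), both kinases downstream of MAP kinases. RNA levels of kinases say nothing of their activity.

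Among 15 tested partners of AP-1 and MYC none was past the threshold, against 3.9% of all tested genes. An unadjusted p below 0.05 by edgeR was found for 1 partner, against 11.5% of all tested genes. This was MXD4, a MAX partner that opposes MYC, at 329 ± 22.7 against 200 ± 26.2 (SD, n = 3; log2 fold change 0.72, unadjusted p = 0.00338, adjusted p = 0.166 by edgeR). ATF4 and MAX were the most counted, with log2 fold changes of 0.03 and -0.04, and MAX was counted at 5789 ± 701 in the high-NFMP group (SD, n = 3) where its partner MYC had 10.7 ± 8.77.

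Heat shock and glucocorticoid response genes were listed as other stress responses. Of 15 cytosolic heat shock genes, 4 were past the threshold as lower in the high-NFMP group (HSPA1A, HSPA6, DNAJA1 and DNAJB1), 26.7% of the list against 1.36% of all tested genes in that direction, and the study named these genes on the same libraries. The count of 4 was 2 with age as a term and without steer 10-8, 3-1 or 10-16. Reads of near-identical heat shock gene copies may be split between them, so HSPA1A is uncertain. The median log2 fold change of the 15 was -0.45, 13 were negative, and 7 had an unadjusted p below 0.05 by edgeR, all as lower (5.74% of all tested genes). The most counted genes of the list, HSPB1 and HSP90AA1, had log2 fold changes of 0.06 and -0.02. Of 13 glucocorticoid response genes none was past the threshold (3.9% of all tested genes were). The unadjusted p was below 0.05 for 3 of them, FKBP5 (-0.60) and TSC22D3 (-0.73) as lower (5.74% of all tested genes) and KLF9 (0.79) as higher (5.73% of all), while PDK4 and ZBTB16, the most counted, were at -0.51 and 0.03.

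The average centred profile of the 10 members ran from -0.21 in steer 3-3 to 0.20 in steer 10-9 on the log2 scale. Without MYC, which had 49 and 3 reads in these steers, it was -0.43 and 0.41. The 5 genes nearest to the profile with MYC among 10740 others with a mean of at least 50 normalized counts were SH3BP5, LOC112442546, ARHGAP10, ATP6V1E1 and ADAM17, with root mean square differences between 0.04 and 0.05 on the log2 scale over the 6 steers. These 5 genes varied little, with 1.23-fold to 1.35-fold between the extreme steers, since the averaged profile was itself nearly flat. The members lay farther from it, between 0.14 (IER2) and 1.19 (MYC), so nearness to the profile is not likeness to single members. The 5 were picked as the nearest of all these genes, and the search was not repeated without MYC.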

How the data were processed

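Per the file headers and values, the authors deposited raw read counts per gene symbol for each of 6 LT libraries, whole numbers with totals between 16283873 and 17192750. The libraries were made with a Lexogen 3′ mRNA kit. The paper's methods name Tophat2 with HTSeq and, elsewhere, Bowtie2 with multiple alignments, and the labels name Bowtie2 and bedtools. The sources used here do not say which of these made the counts or whether strand was used. By RefSeq's annotation of ARS-UCD2.0, no other gene overlaps any of the 10 members. That assembly differs from the one in the methods, so no coordinates are given.

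Tests used edgeR 4.0.16 (R 4.3.3) on the deposited counts: default filter (minimum count 10, minimum total 15; 15039 of 23015 rows kept), TMM factors, robust dispersions and the quasi-likelihood test, with Benjamini-Hochberg adjustment over all tested genes. Standard errors came from the fold change and the F statistic. The threshold, more than a 2-fold difference at an unadjusted p below 0.05, is that of the paper. Spread was measured on log2(normalized count + 1). Alternatives were RLE factors, library totals, omission of the filter, a stricter filter (10 counts or more in all libraries), limma 3.58.1 after quantile normalization, DESeq2 1.42.0, a term for age or for the first label number, and fits leaving out single steers. The procedures were tested on simulated data.

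The members and gene lists were chosen with earlier results of these data known. Named genes were the members, the genes of other lists past the threshold, the most counted 5 of the wider list and 2 of each further list, and the 5 nearest profiles. Genes named beyond this rule were chosen after their values were seen. They are those at an unadjusted p below 0.05 with a smaller fold, JUND, SRF, CSF1R, CD14, LEP, PLIN1 and those removed by the filter. The most counted genes of the marker lists not named elsewhere were PECAM1, VWF, CD163, PTPRC, DCN and COL1A1.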

Additional observations from a re-analysis of the deposited data

How the results depend on the processing

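Of the 10 members, 0 were past the threshold in the reported fit, 1 with age as a term (MYC), and 0 to 1 with each steer left out (IER3 without steer 10-8 or 3-3). At an unadjusted p below 0.05 there were 4 members with age as a term and 2 to 3 with each steer left out. The log2 fold changes of FOSB, JUNB and EGR1 turned positive with age as a term (0.57, 0.0076 and 0.12), and with each steer left out they ranged from -0.80 to 0.50, from -0.21 to 0.10 and from -0.34 to 0.41, and that of ATF3 from -0.23 to 0.40. BTG2 and IER3 stayed positive throughout. Of the other immediate early genes, 3 past the threshold became 7 with age and 2 to 6 with each steer left out. Of the upstream genes 1 was past it with library totals alone and 1 with limma, and 0 to 1 with each steer left out. Of the partners it was 1 with limma and 0 to 1, of the heat shock genes 2 with age and 2 to 4, and of the glucocorticoid response genes 0 to 1.

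Over all genes, 586 past the threshold became 969 without a filter, 364 with at least 10 counts in every library (which removed MYC), and 601 to 714 with each steer left out. An adjusted p below 0.05 was reached by 103 genes, by 240 without a filter, by 291 with DESeq2, by 31 with age, by 28 to 86 with each steer left out and by 0 with limma, where 1657 genes had an unadjusted p below 0.05. The 381 higher and 205 lower genes became 315 and 248 with library totals alone, and 347 and 367 without steer 3-8. The causes were not tested. EGR1 and MYC had at most 45 and 49 reads in a library. No paired analysis was possible because replicate numbers were given in accession order and pair no steers. The first label number, whose meaning is not given, occurs in both groups but in unequal numbers, and was fitted as a term instead.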
